A study of Mus musculus with 7 samples.

Results

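The Hedgehog pathway was followed through ATAC-seq peak lists of the embryonic gut of the mouse. It was represented by 9 genes: the ligand genes Shh and Ihh, the antagonist gene Hhip, the receptor gene Ptch1, the transducer genes Smo and Sufu, and the transcription factor genes Gli1, Gli2 and Gli3. The peaks of the 7 deposited lists, 1 per tissue, were merged where they overlapped, and a merged region belonged to a Hedgehog gene where no other protein-coding gene body lay closer and the distance was at most 100 kb. Of 326695 regions 312 met this rule, and all 9 genes had at least 4. The libraries were Sox2 knockout (KO) stomach at embryonic day 16 (E16), wild-type forestomach, hindstomach, small intestine and colon at E16, and wild-type stomach and intestine at E13. ATAC-seq marks DNA that a transposase can reach, and SOX2 is a transcription factor that marks the foregut and the stomach.

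The 6 libraries whose labels name no knockout are called wild-type here, although their embryos, E13.5 and E16.5 per the labels' protocols, carried ShhCre;R26YFP/+. Such embryos label cells that have expressed Shh, because the Cre is driven by Shh itself, 1 of the genes described here. Each E13 library came from 50000 sorted cells pooled from 3 to 4 YFP+ embryos after trypsin digestion of the organ. Forestomach epithelium was freed with dispase and by hand, hindstomach epithelium with 10 mM EDTA, and small intestine and colon epithelium with 5 mM EDTA. How the KO allele was made, which part of the KO stomach was taken and how its cells were isolated are unknown from the labels used. Each group is a single library, so no replicate spread exists and no difference was tested.

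In Hedgehog signalling a secreted ligand binds PTCH1, which then stops holding back SMO, and SMO in turn frees the GLI transcription factors from SUFU. In the developing gut the epithelium secretes SHH and IHH, and the main receiving cells are those of the surrounding mesenchyme. GLI1, PTCH1 and HHIP are both parts of the pathway and the products of its best known target genes.

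The files give no reads, heights or scores, so depth is unknown. The lists held between 81179 peaks in E13 intestine and 135743 in colon, and their peaks covered between 11.9 Mb in E13 intestine and 22.8 Mb in KO stomach. All 10 epithelial marker genes had a peak within 1 kb of a gene end in each of the 7 libraries. Of 13 genes that mark mesenchyme and smooth muscle, 9 had such a peak in KO stomach (68.8% of all protein-coding genes). In forestomach 5 of them had one (58.1%), in hindstomach 7 (62.6%), in colon 1 (55.4%) and in E16 intestine 4 (56.4%). In E13 stomach it was 7 (65.6%) and in E13 intestine 10 (62.9%). Col3a1, a fibrillar collagen gene, had none in any library, nor did the endothelial genes Pecam1 and Cdh5 or the blood genes Gata1 and Csf1r. Other members of these lists went the other way. The endothelial genes Kdr and Erg and the blood gene Spi1 had one in all 7 libraries. Col1a1 and Myh11, of the mesenchyme and smooth muscle list, had one in every library but colon. For 6 endothelial genes the counts ran from 2 to 3 across libraries, for 6 blood genes from 1 in both E13 libraries to 4 in colon, and for 6 genes of enteric neurons and neural crest from 1 in colon to 5 in KO stomach. All these counts are to be read against the same shares over all protein-coding genes, 55.4% in colon to 68.8% in KO stomach. A peak that is missing can mean fewer cells with that site open or less opening per cell, and these cannot be told apart here.

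At the annotated ends of the genes, the Hedgehog genes differed in how many libraries had a peak. For Ptch1 the RefSeq promoter lies inside the gene, away from both ends, and is described further below. Ihh, Smo and Sufu had a peak within 1 kb of an end in all 7 libraries, and Gli2 in 6, all but colon. Ptch1 and Gli3 had one in KO stomach and in both E13 libraries, and in none of the 4 wild-type E16 tissues. Hhip had one in those 3 libraries and in hindstomach. Gli1 lacked one in forestomach and E13 intestine, and Shh in colon and E13 intestine. In all, 9 of the 9 genes had a peak at an end in KO stomach (68.8% of all protein-coding genes), 5 in forestomach (58.1%), 7 in hindstomach (62.6%), 4 in colon (55.4%), 6 in E16 intestine (56.4%), 9 in E13 stomach (65.6%) and 7 in E13 intestine (62.9%).

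The promoter sequences of 4 genes are printed here because they carry this contrast: Gli3 and Hhip, with peaks over the promoter in KO stomach and both E13 libraries, and Ihh and Sufu, with peaks there in all 7. They are from RefSeq (GRCm38.p6, the assembly that mm10 names), run 5′ to 3′ along the gene's strand, and span 250 bases before to 50 after the start. Capitals mark CpG dinucleotides. The Gli3 promoter lies on the plus strand at chr13:15463473-15463772, the Hhip promoter on the minus strand at chr8:80057959-80058258, the Ihh promoter on the minus strand at chr1:74951623-74951922, and the Sufu promoter on the plus strand at chr19:46396646-46396945.
Gli3: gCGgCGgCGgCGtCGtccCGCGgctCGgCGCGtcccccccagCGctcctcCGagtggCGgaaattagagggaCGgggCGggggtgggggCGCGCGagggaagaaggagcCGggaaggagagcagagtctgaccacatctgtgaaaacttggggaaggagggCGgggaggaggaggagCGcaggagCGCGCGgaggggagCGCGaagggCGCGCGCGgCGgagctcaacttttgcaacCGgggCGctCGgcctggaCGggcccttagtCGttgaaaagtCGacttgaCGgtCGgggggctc
Hhip: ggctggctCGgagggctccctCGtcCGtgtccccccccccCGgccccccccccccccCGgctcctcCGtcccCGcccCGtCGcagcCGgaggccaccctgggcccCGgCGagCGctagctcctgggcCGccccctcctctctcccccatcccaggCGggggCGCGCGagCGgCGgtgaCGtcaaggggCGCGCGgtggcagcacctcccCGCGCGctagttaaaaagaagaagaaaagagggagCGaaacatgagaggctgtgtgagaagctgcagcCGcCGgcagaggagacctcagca
Ihh: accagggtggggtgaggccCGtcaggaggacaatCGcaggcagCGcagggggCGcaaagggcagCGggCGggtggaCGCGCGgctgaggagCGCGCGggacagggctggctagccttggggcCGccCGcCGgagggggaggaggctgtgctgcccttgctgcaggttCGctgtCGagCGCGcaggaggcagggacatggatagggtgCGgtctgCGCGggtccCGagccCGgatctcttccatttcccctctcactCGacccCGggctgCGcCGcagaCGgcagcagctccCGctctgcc
Sufu: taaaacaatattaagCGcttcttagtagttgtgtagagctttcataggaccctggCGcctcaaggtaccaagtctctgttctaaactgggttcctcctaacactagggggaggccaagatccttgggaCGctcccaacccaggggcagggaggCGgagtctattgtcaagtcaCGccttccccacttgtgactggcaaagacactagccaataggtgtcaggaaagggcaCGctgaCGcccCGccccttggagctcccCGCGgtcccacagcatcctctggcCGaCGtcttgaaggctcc

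The printed promoters did not part by base composition. The Gli3 promoter held 39 CpG dinucleotides and was 71.0% G or C, the Hhip promoter 30 and 73.7%, the Ihh promoter 30 and 72.7%, and the Sufu promoter 12 and 56.3%. Over 32619 RefSeq promoters of the same length the medians were 7 CpG dinucleotides and 53.0%. The GLI motif TGGGTGGTC, searched on both strands, was in none of the 7 Hedgehog gene promoters in the RefSeq table (0.254% of all promoters held it), nor was any form of it with 1 letter changed (6.59%). The letters ACAATG or ACAAAG, taken for SOX factors, were found in the Smo promoter alone of the 7 (28.3% of all promoters). GGAATG, for TEAD factors, was also found only at Smo (14.6%). No Hedgehog gene promoter held TTTATGG for CDX factors (2.76%), AGATAA for GATA factors (11.2%), TGTTTAC for FOXA factors (3.67%) or CAAAGTCC for HNF4 (1.43%). A search for letters in so short a window says nothing about whether a factor binds there.

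**Figure D1:**
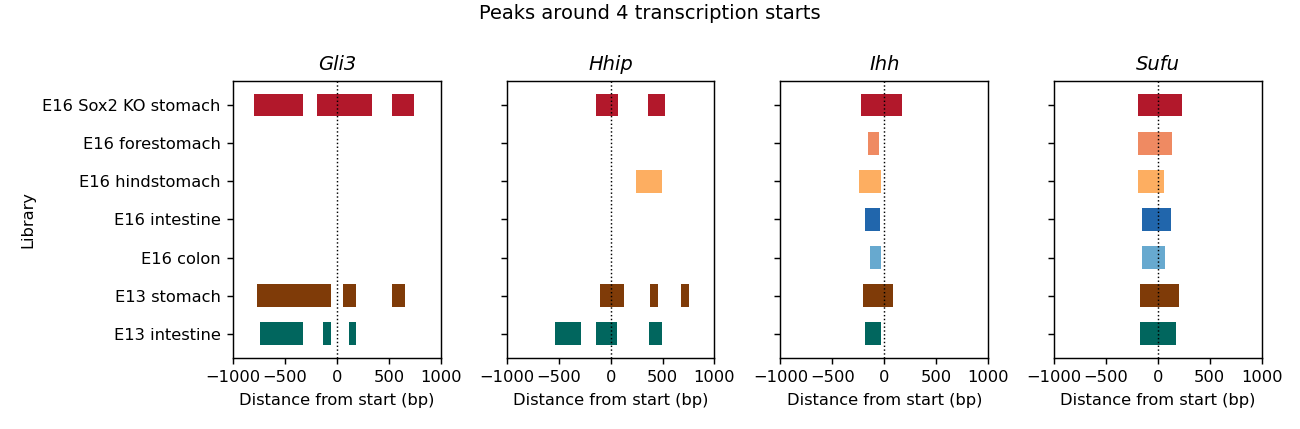
Deposited peaks (bars, to scale) within 1000 bp of the transcription start (dotted line, distance in bp along the direction of transcription) of Gli3, Hhip, Ihh and Sufu, 1 row per library. At the Gli3 start forestomach, hindstomach, E16 intestine and colon have no peak, while KO stomach, E13 stomach and E13 intestine do, and at Ihh and Sufu all 7 libraries have a peak.

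Gli3, whose product acts mainly as a repressor when no ligand is present, had a region of 1133 bp over its start at chr13:15462924-15464057, which also overlaps the non-coding gene Gm6556. In KO stomach its peaks were 468 and 530 bp wide, in E13 stomach 720 and 119 bp, and in E13 intestine 408, 86 and 62 bp. At Ptch1 the annotated gene end at 63573460 on chromosome 13 lay in the region chr13:63573403-63573757, with a peak of 354 bp in KO stomach, 179 bp in E13 stomach and 69 bp in E13 intestine. No library had a peak over the Ptch1 promoter of the RefSeq table, which lies inside the gene at chr13:63565686-63565985. Near that start, hindstomach alone held chr13:63565083-63565192, 543 bp away. KO stomach and E13 stomach held chr13:63566290-63566495, 555 bp away. The region nearest to this promoter held by all 7 libraries was chr13:63567816-63568219, where peaks were 258 bp wide in hindstomach and 284 to 342 bp in the others. Hhip, which encodes a membrane protein that captures the ligands, had a peak over its start of 215 bp in KO stomach, 231 bp in E13 stomach and 200 bp in E13 intestine. The hindstomach peak at Hhip, 246 bp wide, lay further inside the gene at chr8:80057518-80057764.

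Ihh and Sufu, with a promoter peak in every library, had narrower peaks in the wild-type E16 tissues than in KO stomach. Ihh, a ligand gene of the gut epithelium, had a peak of 391 bp over its promoter in KO stomach, and peaks of 101 bp in colon to 205 bp in hindstomach in the wild-type E16 tissues. In E13 stomach that peak was 288 bp wide and in E13 intestine 149 bp. The Sufu start carried peaks of 428 bp in KO stomach, 217 bp in colon to 321 bp in forestomach, 373 bp in E13 stomach and 346 bp in E13 intestine. Over all peaks the median width was 153 bp in KO stomach, 178 bp in forestomach, 147 bp in hindstomach, 124 bp in colon, 130 bp in E16 intestine, 138 bp in E13 stomach and 108 bp in E13 intestine, so KO peaks were not the widest as a rule. Whether width follows the depth of a list was not tested.

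Smo, which encodes the transmembrane transducer, had its start covered in KO stomach, forestomach, hindstomach, E13 stomach and E13 intestine, at chr6:29735327-29735930. In E16 intestine and colon the nearest peak lay further inside the gene, in the region chr6:29735964-29736457 that all 7 libraries held. The widest region at any Hedgehog gene lay deeper in Smo, at chr6:29747681-29749154, and its peaks were 1241 to 1464 bp wide in every library. Gli2, whose product is the main activator of the response, had a region over its start at chr1:119053479-119053812 with peaks of 332 bp in KO stomach, 189 bp in forestomach, 261 bp in hindstomach, none in colon, and peaks of 305 bp in E16 intestine, 262 bp in E13 stomach and 325 bp in E13 intestine.

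At Gli1 and Shh both gene ends were searched. Gli1, the classic read-out gene of the pathway, had its end peak 794 bp outside the gene at chr10:127342373-127342539, in KO stomach (80 bp), hindstomach (103 bp), E16 intestine (94 bp), colon (159 bp) and E13 stomach (141 bp). Inside Gli1 the region chr10:127338932-127339467 was held by every library except colon. The gene is short, at 11.7 kb, and had 4 regions in all. At the end of Shh nearer to Lmbr1 the peaks differed in position: KO stomach, E16 intestine and E13 stomach had a peak of 93 to 117 bp within chr5:28466809-28466939, whereas forestomach and hindstomach had 1 of 136 to 190 bp within chr5:28466298-28466488. Whether the ShhCre allele alters these peaks was not tested.

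**Figure D2:**
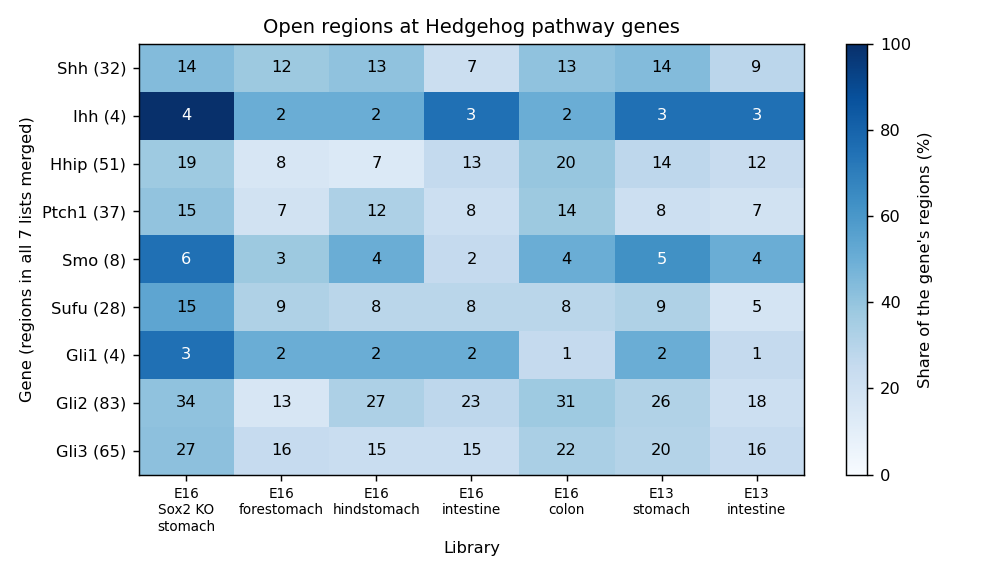
Number of regions with a peak (printed) for each of the 9 genes (rows, total regions in brackets) in each library (columns), shaded by the share of that gene's regions in percent. KO stomach has the highest count of any library for 7 of the genes outright, ties with E13 stomach for Shh at 14, and is 1 below colon for Hhip.

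Across whole loci the KO stomach library held the most Hedgehog regions. The ligand gene Shh had 14 regions in KO stomach, 12 in forestomach, 13 in hindstomach, 13 in colon, 7 in E16 intestine, 14 in E13 stomach and 9 in E13 intestine. Ihh had 4 in KO stomach, 2 in forestomach, hindstomach and colon, and 3 in E16 intestine, E13 stomach and E13 intestine. Hhip had 19 in KO stomach, 8 in forestomach, 7 in hindstomach, 20 in colon, 13 in E16 intestine, 14 in E13 stomach and 12 in E13 intestine. The antagonist's locus thus had its lowest counts in the 2 wild-type E16 stomach parts.

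Ptch1 had 15 regions in KO stomach, 7 in forestomach, 12 in hindstomach, 14 in colon, 8 in E16 intestine, 8 in E13 stomach and 7 in E13 intestine. Smo had 6 in KO stomach, 5 in E13 stomach and 2 to 4 in the other libraries. Sufu had 15 in KO stomach, 9 in forestomach and E13 stomach, 8 in hindstomach, E16 intestine and colon, and 5 in E13 intestine. Among the transcription factor genes, Gli1 had 3 in KO stomach and 1 or 2 elsewhere. Gli2 had 34 in KO stomach, 13 in forestomach, 27 in hindstomach, 31 in colon, 23 in E16 intestine, 26 in E13 stomach and 18 in E13 intestine. Gli3 had 27 in KO stomach, 16 in forestomach, 15 in hindstomach and E16 intestine, 22 in colon, 20 in E13 stomach and 16 in E13 intestine. The counts per gene follow gene length in part, from 6.36 kb and 4 regions at Ihh to 266 kb and 65 regions at Gli3, so levels are compared between libraries and not between genes.

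Summed over the 9 genes, 137 of the 312 regions had a peak in KO stomach, 43.9% (95% exact binomial interval 38.3 to 49.6), against 31.8% of all regions. The counts were 72 (23.1%) in forestomach against 26.1% of all regions, 90 (28.8%) in hindstomach against 33.3%, 115 (36.9%) in colon against 40.8% and 81 (26.0%) in E16 intestine against 28.9%. In E13 stomach 101 (32.4%) stood against 28.2% and in E13 intestine 75 (24.0%) against 22.9%. Intervals cover counting error only. Per 100000 regions of its own list, KO stomach held 132 Hedgehog regions, E13 stomach 110 and E13 intestine 100, and the 4 wild-type E16 tissues held 82.8 to 86.4. The 3 libraries with the open Ptch1 and Gli3 ends were thus the 3 with the most Hedgehog regions for their list length.

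**Figure D3:**
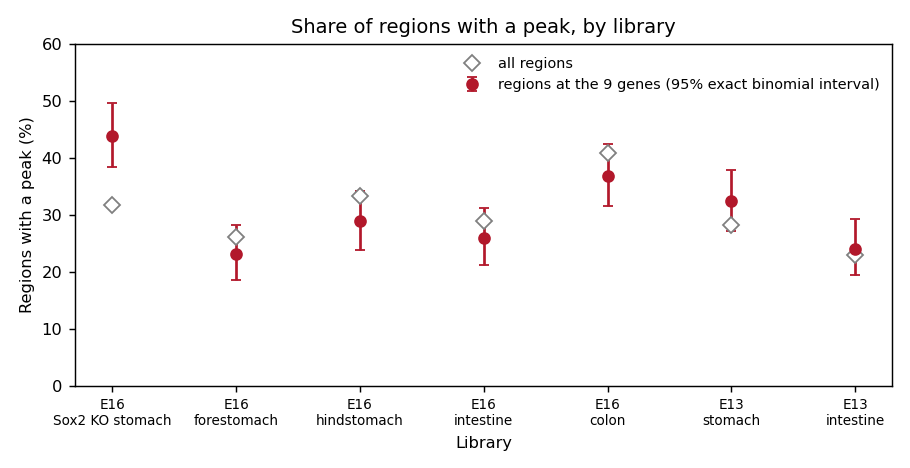
Share of the 312 regions at the Hedgehog genes with a peak in each library (red points, percent, with 95% exact binomial intervals for counting error) beside the share of all regions (grey diamonds). The KO stomach share of 43.9% lies above the 31.8% of all regions, and the shares of the 4 wild-type E16 tissues lie below theirs.

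KO stomach was compared with each wild-type stomach library. The part of stomach and the cell isolation are unknown for KO stomach, so genotype cannot be told apart from them. Against hindstomach, 87 Hedgehog regions were in KO stomach only, 40 in hindstomach only and 50 in both, so 68.5% (59.7 to 76.5) of the unshared regions were KO-only, against 47.9% over all regions. All 9 genes had more regions in KO stomach than in hindstomach, which 39.4% of genes with at least 4 regions did. Here and below, that set was not matched to the 9 genes for number of regions, which ran from 4 at Ihh to 83 at Gli2. Hhip had 17 KO-only and 5 hindstomach-only regions, Gli3 19 and 7, and Sufu, a brake on the GLI proteins, 11 and 4. Shh was the most even, with 5 and 4, and 9 shared.

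Against forestomach, 99 regions were KO-only, 34 forestomach-only and 38 shared. That is 74.4% (66.2 to 81.6) KO-only, against 58.5% over all regions, and again all 9 genes had more in KO stomach, as did 56.2% of genes with at least 4 regions. Gli2 had 25 KO-only and 4 forestomach-only regions and Hhip 18 and 7. Against E13 stomach, 63 regions were KO-only, 27 E13-only and 74 shared, or 70.0% (59.4 to 79.2) KO-only against 57.1% over all regions. More regions in KO stomach were found for 8 of the 9 genes (53.6% of genes with at least 4 regions), Ptch1 with 11 KO-only and 4 E13-only regions among them, and Shh was equal at 2 and 2. These 3 comparisons share the KO library.

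Of the 137 Hedgehog regions of KO stomach, 54.0% were also in E13 stomach (53.7% for all KO regions), 40.9% in E13 intestine (39.3%), 36.5% in hindstomach (48.0%) and 27.7% in forestomach (37.9%). E16 intestine held 16.1% of them (27.9%) and colon 10.9% (24.3%). KO regions absent from both wild-type E16 stomach parts numbered 85 at the Hedgehog genes, of which 43 (50.6%) were in an E13 library, against 39.3% over all regions, and 6 (7.06%) in E16 intestine or colon, against 8.23%. Conversely, 36 of the 54 Hedgehog regions found in both stomach parts were also in KO stomach, 66.7% against 59.0% over all regions.

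Markers of mesenchyme and of epithelium both leaned to KO stomach. Of the 13 mesenchyme and smooth muscle genes, 10 had more regions in KO stomach than in hindstomach and 3 fewer, with 55 KO-only and 33 hindstomach-only regions (62.5% KO-only, against 47.9% over all regions). Against forestomach 10 had more and 2 fewer (65.6% against 58.5%), and against E13 stomach 8 had more and 2 fewer (74.6% against 57.1%). Of genes with at least 4 regions, 39.4% had more in KO stomach than in hindstomach, 56.2% than in forestomach and 53.6% than in E13 stomach. Regions of the 13 genes with a peak numbered 79 in KO stomach, 49 in forestomach, 57 in hindstomach and 67 in colon. In E16 intestine they numbered 52, in E13 stomach 48 and in E13 intestine 48. In E13 stomach that was 22.6% of their regions, below the 28.2% of all regions, while the share at the Hedgehog genes was 32.4%. For the 10 epithelial genes the E13 stomach share was 38.4%. In KO stomach the share was 37.3% for the mesenchyme list, 53.2% for the epithelial list and 43.9% for the Hedgehog genes, against 31.8% of all regions. The E13 cells had been sorted for YFP, and for KO stomach no sort is known. For the 10 epithelial genes the KO-only share was 61.0% against hindstomach, 63.1% against forestomach and 75.9% against E13 stomach. Endothelial genes had 49.1% KO-only against hindstomach, blood genes 25.0% (3 KO-only and 9 hindstomach-only regions) and neural genes 51.3%. Against forestomach the shares of these 3 lists were 64.6%, 62.5% and 60.5%, and against E13 stomach 59.1%, 42.9% and 46.4%. The part of mesenchymal cells in the KO values was not tested.

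**Figure D4:**
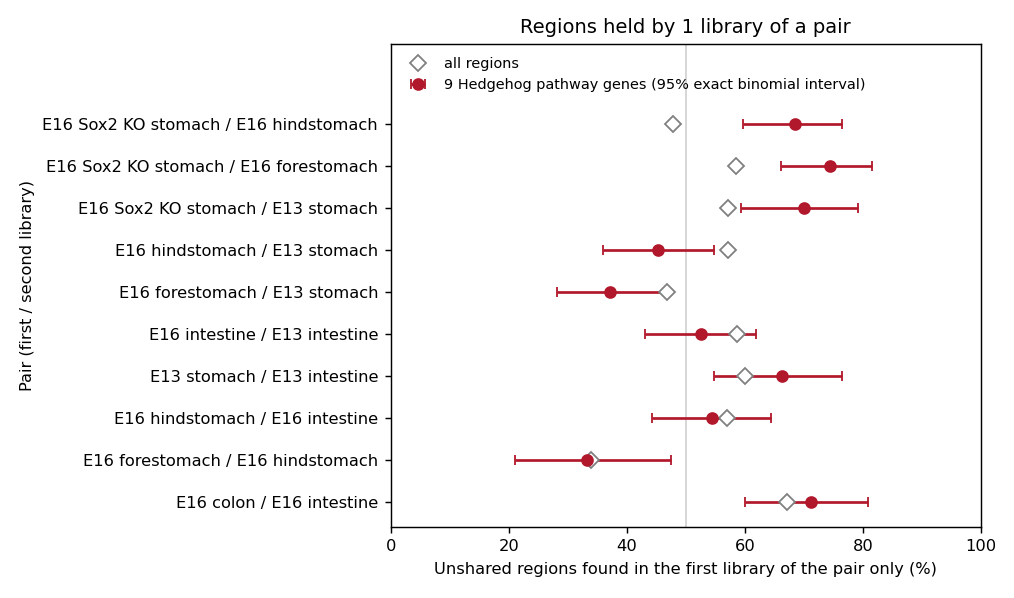
For 10 pairs of libraries, the share of unshared regions found only in the first library of the pair (percent), for the 9 Hedgehog genes (red points, 95% exact binomial intervals for counting error) and for all regions (grey diamonds). In the 3 pairs with KO stomach the Hedgehog share lies above that of all regions, at 68.5%, 74.4% and 70.0%, and in the 3 pairs of E16 with E13 it lies below.

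Both parts of the E16 stomach had fewer Hedgehog regions than the E13 stomach. In hindstomach against E13 stomach, 52 regions were hindstomach-only, 63 E13-only and 38 shared, 45.2% (35.9 to 54.8) hindstomach-only against 57.1% over all regions. For 6 of the 9 genes E13 stomach had more regions, as it did for 26.0% of genes with at least 4 regions. Hhip had 5 hindstomach-only and 12 E13-only regions and Gli3 9 and 14, while Ptch1 had 11 and 7. In forestomach against E13 stomach 42 were forestomach-only and 71 E13-only, 37.2% (28.3 to 46.8) forestomach-only against 46.8% over all regions. There 7 genes had more in E13 stomach (43.1% of genes with at least 4 regions) and Sufu and Gli1 were equal, with Gli2 at 7 and 20. The E13 library is shared by both comparisons, and stage went with the way the cells were isolated, so these cannot be told apart.

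In intestine the stages were closer to even. E16 intestine held 61 regions that E13 intestine did not, and E13 intestine 55 that E16 intestine did not, with 20 shared. The E16-only share was 52.6% (43.1 to 61.9), and the 58.7% over all regions lay inside that interval. Gli2 had 18 E16-only and 13 E13-only regions, Gli3 14 and 15, and Shh 4 and 6. At Gli3, 1 region was found at both stages, chr13:15368072-15368269, which all 7 libraries held 95454 bp from the gene.

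Between organs, E13 stomach against E13 intestine gave 53 stomach-only, 27 intestine-only and 48 shared regions, 66.3% (54.8 to 76.4) stomach-only against 60.1% over all regions. Here 8 of the 9 genes had more regions in stomach (52.6% of genes with at least 4 regions), Gli2 with 14 stomach-only and 6 intestine-only and Shh with 8 and 3, and Ihh had the same 3 in both. Hindstomach against E16 intestine gave 55 hindstomach-only and 46 intestine-only regions, 54.5% (44.2 to 64.4) against 57.0%. In that pair Shh leaned to hindstomach with 10 and 4, and Hhip to intestine with 3 and 9. Forestomach against hindstomach gave 18 and 36, 33.3% (21.1 to 47.5) forestomach-only against 34.0%, and Gli2 accounted for 15 of the 36 hindstomach-only regions with 1 in forestomach only. Colon against E16 intestine gave 57 and 23, 71.3% (60.05 to 80.8) colon-only against 67.2%, with Gli2 at 18 and 10 and Sufu at 2 and 2. For these 4 pairs the share over all regions lay inside the interval.

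The sets of libraries that shared a region show which sites lay behind these counts. A peak in KO stomach and at least 1 E13 library, with none in a wild-type E16 tissue, was found at 38 of the 312 Hedgehog regions, 12.2% (8.76 to 16.3), against 5.26% of all regions. Hhip and Gli2 had 9 such regions each, Gli3 8, Sufu 5, Ptch1 3, Shh and Smo 2 each, and Ihh and Gli1 none. Of the 19 Hedgehog regions within 1 kb of a gene end 5 had this pattern, against 8.42% of all gene-end regions. In the list of gut mesenchyme genes that respond to the signal the pattern took 9.42% of regions, which is inside the interval for the Hedgehog genes. It took 7.55% in the mesenchyme and smooth muscle list and 6.90% in the epithelial list. Examples held by KO stomach and both E13 libraries are chr1:118788735-118789233 and chr1:119033845-119034234 at Gli2, chr13:15707394-15707758 and chr13:15542125-15542419 in Gli3, chr13:63563178-63563589 in Ptch1, chr8:80119443-80119615 at Hhip, and chr6:29762641-29762791 just outside Smo.

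Regions of stomach libraries alone, in at least 2 of them, made up 44 of the 312, 14.1% against 10.2% of all regions. In all 4 stomach libraries stood chr19:46454216-46454802 and chr19:46431394-46431675 in Sufu, chr1:118873658-118873964 in Gli2, and chr5:28530507-28530947 and chr5:28477958-28478148 near Shh. Examples held by KO stomach and both wild-type E16 stomach parts, without E13 stomach, are chr13:63548633-63548857 in Ptch1, chr13:63642692-63642910 and chr13:63643423-63643641 further out, chr19:46484526-46484781 in Sufu and chr5:28519099-28519494 near Shh. Gli2 also had regions of this kind, which are not printed here. E16 intestine and colon alone held 22 regions, 7.05% against 3.62% of all regions: 7 at Gli2, 6 at Gli3, 5 at Hhip, 2 at Sufu, and 1 each at Ptch1 and Shh. Of these 22 none lay within 1 kb of a gene end, and over all regions 261 of the 11817 with this pattern did.

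Regions in all 7 libraries were 10 of 312, 3.21% against 4.46%, with 2 each at Shh, Ihh and Smo and 1 each at Hhip, Ptch1, Sufu and Gli3. Those of wild-type E16 tissues alone were 131, 42.0% against 48.4%, and those of KO stomach alone 41, 13.1% against 8.91%. Regions held by 1 library had a median width of 101 bp and those held by 7 a median of 419 bp, as merged regions tend to widen with the number of lists.

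Shh was also followed out to 1 Mb on either side, because known enhancers of Shh, among them that of the limb, lie far away towards Lmbr1 and inside it. In that window 295 regions were found whatever their nearest gene. KO stomach held 87 of them (29.5%), forestomach 77 (26.1%), hindstomach 95 (32.2%), E16 intestine 88 (29.8%), colon 119 (40.3%), E13 stomach 73 (24.7%) and E13 intestine 61 (20.7%). These shares are near those over all regions, given above.

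Within 100 kb of Shh, where 44 regions lay, KO stomach held 18 (40.9%), forestomach 16 (36.4%) and hindstomach 17 (38.6%). E16 intestine held 13 (29.5%), colon 17 (38.6%), E13 stomach 15 (34.1%) and E13 intestine 11 (25.0%). Over all regions the shares, for here and below, were 31.8% in KO stomach, 26.1% in forestomach and 33.3% in hindstomach. They were 28.9% in E16 intestine, 40.8% in colon, 28.2% in E13 stomach and 22.9% in E13 intestine. Of the 44, 10 were in stomach libraries alone (at least 2), a pattern of 10.2% of all regions. In E16 intestine and colon alone was 1, a pattern of 3.62% of all regions. Of the 44, 7 overlapped Shh, 21 lay on the side towards Lmbr1 and 16 on the other side. The long non-coding gene 9530036O11Rik covers the sites named outside Shh on the Lmbr1 side within 100 kb. Held by all 7 libraries, chr5:28469638-28470084 lay 2.54 kb from the gene and chr5:28500870-28501550 lay 33.8 kb from it. At the second of these the peak was 623 bp wide in KO stomach, 245 bp in forestomach, 289 bp in hindstomach, 133 bp in colon, 210 bp in E16 intestine, 644 bp in E13 stomach and 160 bp in E13 intestine.

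Beyond 100 kb towards Lmbr1, the interval before Rnf32 held 89 regions, 7 of them in at least 4 libraries and 1 in all 7, at chr5:29083048-29083674, which lay 616 kb from Shh. KO stomach had 18 of the 89 (20.2%), forestomach 20 (22.5%), hindstomach 21 (23.6%) and E16 intestine 21 (23.6%). Colon had 34 (38.2%), E13 stomach 20 (22.5%) and E13 intestine 13 (14.6%). Across Lmbr1 lay 19 regions, with 6 in KO stomach (31.6%), 8 in forestomach (42.1%) and 10 in hindstomach (52.6%). Of these 19, colon held 7 (36.8%), E16 intestine 5 (26.3%), E13 stomach 6 (31.6%) and E13 intestine 7 (36.8%). Of them, chr5:29238348-29238683 and chr5:29251129-29251383 were in all 4 stomach libraries and in no intestinal one, and chr5:29377529-29378719, at the end of Lmbr1, was in all 7. Which of these sites act on Shh was not tested. A site nearest to another gene was not counted among the 312.

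**Figure D5:**
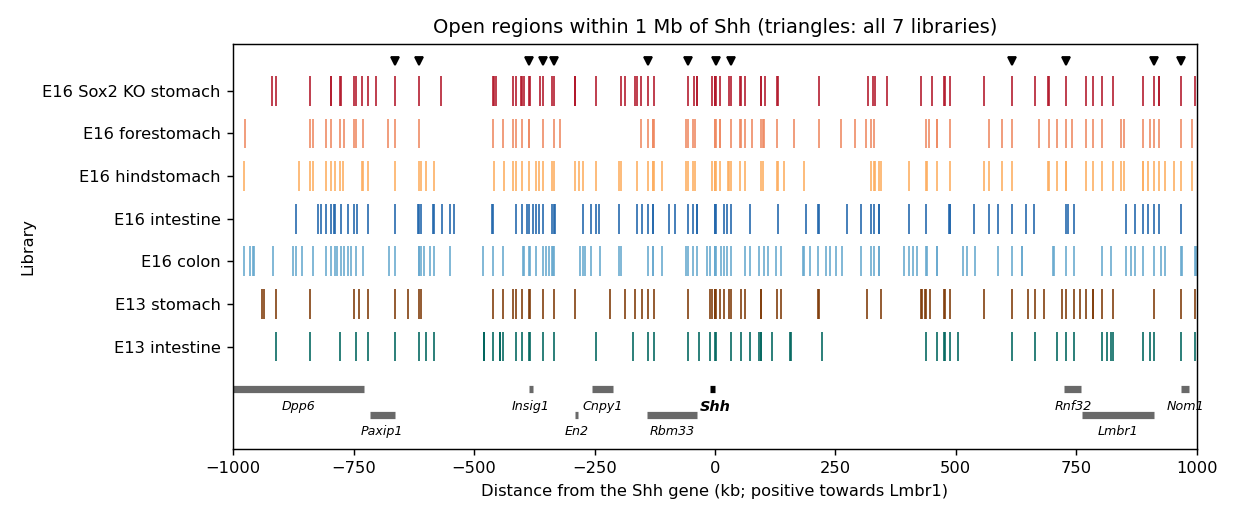
Regions within 1000 kb of the Shh gene (vertical ticks, distance in kb from the nearer gene end, positive towards Lmbr1) with a peak in each library (rows), with protein-coding genes drawn to scale below. Triangles mark the 13 regions that all 7 libraries share, of which 3 lie within 100 kb of Shh.

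The wider pathway was followed in lists of other genes, none of which was tested against the Hedgehog genes. Over all regions the KO-only share was 47.9% against hindstomach, 58.5% against forestomach and 57.1% against E13 stomach. Of genes with at least 4 regions, 39.4% had more regions in KO stomach than in hindstomach. Of 10 genes for ligands, release and reception, 6 had more regions in KO stomach than in hindstomach and 3 fewer, with 61 KO-only and 52 hindstomach-only regions (54.0%). Among them Dhh, the third mammalian ligand gene, had 3 in KO stomach and 1 in hindstomach, and the co-receptor gene Boc 9 and 5. The 3 with fewer were Gas1 with 13 and 15, Lrp2 with 9 and 11, and Gpc3 with 10 and 15. Of 18 genes that act at the cilium or inside the cell, 5 had more in KO stomach and 10 fewer (42.0% KO-only), such as the kinesin gene Kif3a with 1 in KO stomach and 5 in hindstomach. Of 9 genes of gut mesenchyme that respond to the signal, 7 had more and 2 fewer (57.3%). Against forestomach the KO-only shares of the 3 lists were 66.7%, 54.5% and 71.4%, and against E13 stomach 71.3%, 58.6% and 76.5%.

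Counts of gene ends with a peak in these lists are to be read against the shares over all protein-coding genes given above, which were likewise higher in KO stomach and both E13 libraries than in the wild-type E16 tissues. Of the 9 responding genes of gut mesenchyme, 7 had a peak within 1 kb of an end in KO stomach, 0 in forestomach, 1 in hindstomach, 2 each in colon and E16 intestine, and 4 in each E13 library. Foxf1, a forkhead gene of gut mesenchyme that is also on the mesenchyme list, had one in KO stomach, E16 intestine and both E13 libraries. Nkx2-3, a homeobox gene of the gut wall, had one in KO stomach and E13 stomach. Barx1, a homeobox gene of stomach mesenchyme, had one in KO stomach alone. Other genes of the list differed: Foxl1 and Bmp4 had none in any library. Wnt5a had one in every library but forestomach and E13 stomach. In the cilium list 17 of 18 genes had a peak at an end in KO stomach and in both E13 libraries, 14 in each E16 stomach part and 13 in E16 intestine and in colon. For the ligand and reception list the counts were 10 in KO stomach, 7 in forestomach, 8 in hindstomach, 6 in colon, 8 in E16 intestine and 10 in each E13 library.

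Genes with a like profile over the 7 libraries were sought among 4001 other protein-coding genes with at least 20 regions, by the Pearson correlation of log2 regions per 100000 (pseudocount 0.5) with the 9 genes summed. The 5 nearest were Crim1 (r = 0.973), Plxnc1 (0.972), Prr5 (0.968), Ubac2 (0.967) and Sox6 (0.964), over 7 libraries that differ in list length. Crim1 had 31 regions in KO stomach, 14 in forestomach, 17 in hindstomach, 20 in colon, 14 in E16 intestine, 20 in E13 stomach and 16 in E13 intestine. Among the Hedgehog genes the correlation of each with the rest summed ran from 0.34 for Shh to 0.84 for Gli3. These values describe the 7 lists only.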

How the data were processed

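ATAC-seq peaks from 7 mouse libraries, 1 per group, were used. The deposited lists hold peak positions alone, a unit classed as other, with no height, score or read count, and depth is unknown. Per the submitters' processing notes the authors used cutadapt, Bowtie2, MACS2 and GRCm38/mm10, and the labels used name no versions, thresholds or pooling. Positions are printed as deposited, and it is unknown if they count from 0 or from 1.

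Peaks on the 19 autosomes and X that overlapped by at least 1 bp were merged, and a region was given to the nearest protein-coding gene body of GRCm38.p6 RefSeq within 100 kb (81.0% of regions). A gene end means within 1 kb of an annotated end of a gene. No test was made, since each group has 1 library. Shares have 95% exact (Clopper-Pearson) intervals, which cover counting error only and treat regions as independent. Merging, assignment and counting were tested on simulated data and recovered the planted regions.

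The 9 genes, the lists, the 10 pairs and the motifs were chosen with earlier results of these data known. All 9 genes are named. Regions named are those at gene ends, those of all libraries, and for each gene up to 4 more that only E13 libraries (with or without KO), only stomach, only intestinal libraries or only KO held, by number of libraries and then width. The text prints a part of them, and the choice of examples among them was made after the values were seen, as was that of the sites in Lmbr1 and of the genes named from the lists. The alternatives are given in the closing section. Motifs were searched only in the promoters of the RefSeq table. The work used Python 3.11.15, numpy 2.4.6, pandas 2.3.3, scipy 1.17.1 and matplotlib 3.10.9.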

Additional observations from a re-analysis of the deposited data

Results flagged for a closer look

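In raw counts of regions, E16 minus E13 had opposite signs in stomach and intestine for the Hedgehog genes summed and for Hhip, and this difference was not tested. Summed over the 9 genes, hindstomach minus E13 stomach was -11 regions and forestomach minus E13 stomach -29, whereas E16 intestine minus E13 intestine was 6. At Hhip these differences were -7, -6 and 1. For the genes summed the signs did not differ once list length was taken into account. Per 100000 regions the values were 82.8 in hindstomach and 84.4 in forestomach, against 110 in E13 stomach, and 85.8 in E16 intestine, against 100 in E13 intestine. With the widest peaks at equal list length the counts were 70 in hindstomach and 67 in forestomach, against 89 in E13 stomach, and 66 in E16 intestine, against 75 in E13 intestine. At Hhip, E16 intestine had 13 of its 94418 regions and E13 intestine 12 of its 74800. For its list length E16 intestine thus held fewer Hhip regions than E13 intestine, and the signs at Hhip did not differ either. Each rests on 1 library per tissue and stage. The E16 stomach parts and the E16 intestine were isolated in different ways.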

How the results depend on the processing

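No paired analysis was possible because each group has 1 library. The alternatives were an overlap of at least 50% of the shorter peak, merging of peaks within 150 bp, limits of 50 kb and 10 kb to the gene, the 81179 widest peaks of each list (as no strength is given), regions away from gene ends, and, added after the data were seen, merging without KO stomach. Of 67 shares recomputed, 66 stayed within the counting interval. The exception was colon against E16 intestine with the widest peaks, at 55.2% colon-only. The limits of 50 kb and 10 kb were applied to the Hedgehog regions only, and the share over all regions was still taken at any distance. In 65 of 67 the Hedgehog share stayed on the same side of the share over all regions, including all 18 for KO stomach. The 2 others were hindstomach against E16 intestine with the widest peaks (52.2% against 49.8%) and forestomach against hindstomach away from gene ends (35.3% against 34.4%). Within 10 kb the region counts were 45 in forestomach, 56 in hindstomach, 70 in colon, 51 in E16 intestine and 45 in E13 intestine, fewer by construction, and with the widest peaks colon had 72. The other 35 of 41 counts stayed within 1.5 times. Depth, peak strength and replicate spread are unknown, so a missing peak cannot be told from one below the caller's threshold.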
